A study of Sus scrofa with 24 samples.

Results

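Stretched pig aortic valve leaflets cultured with serotonin plus fluoxetine (5HT plus Fluox in the labels) were compared with stretched leaflets cultured with no agents added. The comparison holds the 12 arrays with those titles, 6 per group, of the 24 arrays in the series. The other 12 arrays hold static leaflets, 6 with 5HT plus Fluox and 6 with no agents, and are used here for the estimate of spread and for the test of whether stretched and static tissue differed in their response. Expression was read on an Affymetrix porcine array, on which a gene is represented by 1 or more probe sets, and all values below are log2 signals, so that a difference of 1 is a factor of 2.

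The tissue came from domestic pigs of 12 to 24 months. A central piece of 15 by 10 mm was cut from each leaflet, and the pieces were assigned at random to the 4 groups. All groups were kept for 24 h at 37 °C in DMEM with fetal bovine serum and ascorbic acid, so the leaflets without agents also had serum in their medium. The stretched pieces had loops sewn to their ends and hung in a tensile stretch bioreactor. The doses of both agents are not given in the sources used here, and serotonin and fluoxetine were added together, so the 2 agents cannot be told apart. The arrays are labelled as biological replicates, but the labels do not say which pieces shared a valve or an animal. The p-values therefore measure the spread between these pieces.

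Serotonin acts on cells through surface receptors such as HTR2A and HTR2B and is taken up by the transporter SLC6A4, which fluoxetine blocks. The main cells of a valve leaflet are interstitial cells, fibroblast-like cells that make collagen, elastic fibres and proteoglycans and that can take on contractile, smooth muscle-like features. Ribosome biogenesis is the making of ribosomes in the nucleolus. RNA polymerase I transcribes a long precursor RNA there, and a large set of assembly factors modify it, cut it and fold it with ribosomal proteins into the small and large subunits. The circadian clock is a feedback loop in which PER and CRY proteins repress the factors that switch them on.

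The quality of the RNA was uneven in the stretched tissue. It was read here as the log2 signal of the 3' control probe set minus that of the 5' one, averaged over the controls for GAPDH and EF1A, which grows as RNA breaks down. With agents, the 6 stretched arrays stood at 1.90, 2.29, 1.85, 2.18, 4.66 and 2.98 (arrays 1 to 6). With no agents they stood at 0.98, 2.18, 2.42, 1.63, 2.31 and 3.06. The groups overlapped, with a mean of 2.64 ± 1.07 with agents and 2.09 ± 0.71 with no agents (SD, n = 6 each), a difference of 0.55 (exact two-sided permutation test over 924 regroupings, p = 0.355). Over all 6 arrays of each group the medians were 2.24 with agents and 2.24 with no agents. Without array 5 of the agents group the difference of the means was 0.14 (exact two-sided permutation test, p = 0.719). Over 2.5 were 3 arrays, namely arrays 5 and 6 with agents and array 6 with no agents. Static leaflets lay at 0.82 ± 0.11 with agents and 0.77 ± 0.14 with no agents.

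**Figure D1:**
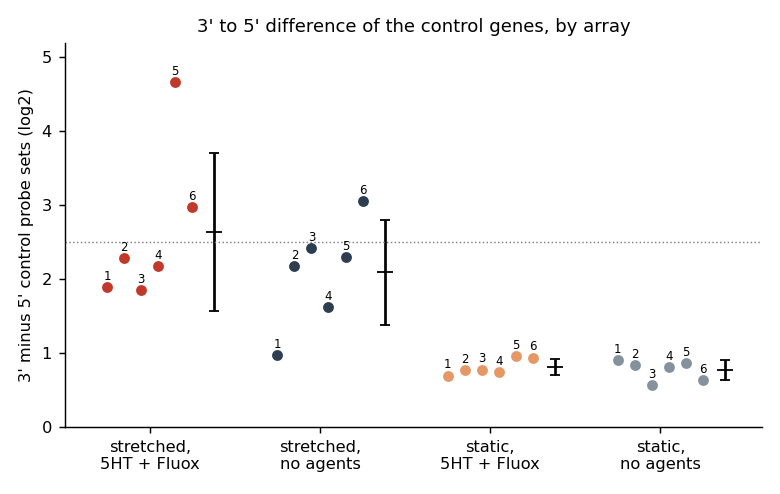
The 3' minus 5' log2 difference of the GAPDH and EF1A control probe sets on each of the 24 arrays (points, numbered by replicate), with the mean ± SD of each group of 6 and a dotted line at 2.5. Array 5 with agents, at 4.66, is the highest, and the stretched groups spread more widely than the static ones, whose means are 0.82 with agents and 0.77 with no agents.

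Single genes also spread more in stretched than in static tissue. The median SD within a group was 0.40 with agents and 0.53 with no agents in stretched leaflets, against 0.21 with agents and 0.30 with no agents in static ones. The stretched arrays with no agents were not alike. Arrays 2 to 6 with no agents fell inside the range of the 6 arrays with agents for between 60.0% and 68.9% of the 23999 probe sets, but array 1 did so for 30.6%. Array 1 was also the one with the lowest 3' to 5' difference, 0.98. Because the limma fit pools the spread over all 4 groups, some results are also given for the 2 stretched groups alone. These are the counts over all probe sets, the called genes with a symbol and the ribosome biogenesis list. Unadjusted counts of the other lists come from the 4-group fit. In the 2-group fit 7 rather than 10 contractile genes and 10 rather than 7 elastic fibre list genes were higher at an unadjusted p under 0.05.

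Of 23999 probe sets, 14 (0.0583%) differed between stretched leaflets with agents and those with no agents at an adjusted p under 0.05 (limma, 4 groups, Benjamini-Hochberg over all probe sets). Among them, 11 (0.0458%) were higher and 3 (0.0125%) were lower with agents. Those with a gene symbol were the ribosome biogenesis factors DCAF13 and NIP7, both lower, and CA11, a carbonic anhydrase-related protein, which was higher. After quantile normalization 21 were higher and 10 lower, and after each array was centred on its bright probe sets 17 were higher and 10 lower. The authors' deposited table of comparisons lists 7 probe sets under the same threshold for this pair of groups, 5 higher and 2 lower, and 6 of those 7 are among the 14. In the fit of the 2 stretched groups alone, 0 probe sets were called by limma, with a smallest adjusted p of 0.572 and 1991 probe sets (8.3%) at an unadjusted p under 0.05. With all 4 groups, 3555 probe sets (14.8%) were under that unadjusted threshold, 1878 (7.83%) higher and 1677 (6.99%) lower.

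The number of calls turned on single arrays. Leaving out 1 array at a time gave between 0 and 1647 calls. Without array 6 of the no-agents group it was 1647 (2.9% of all probe sets higher and 3.97% lower), without array 5 it was 822 (1.08% higher and 2.34% lower) and without array 4 it was 191. Without array 2 of the agents group it was 162. All 14 probe sets were among the calls in each of these 4 cases. Without any of the other 8 arrays the count was between 0 and 6: 2, 5, 6, 3 and 0 without arrays 1, 3, 4, 5 and 6 of the agents group, and 5, 0 and 1 without arrays 1, 2 and 3 of the no-agents group. With the 3 arrays over 2.5 in 3' minus 5' signal left out, 321 probe sets were called, 146 higher (0.608%) and 175 lower. When this difference entered the model as a covariate, 5 were called.

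**Figure D2:**
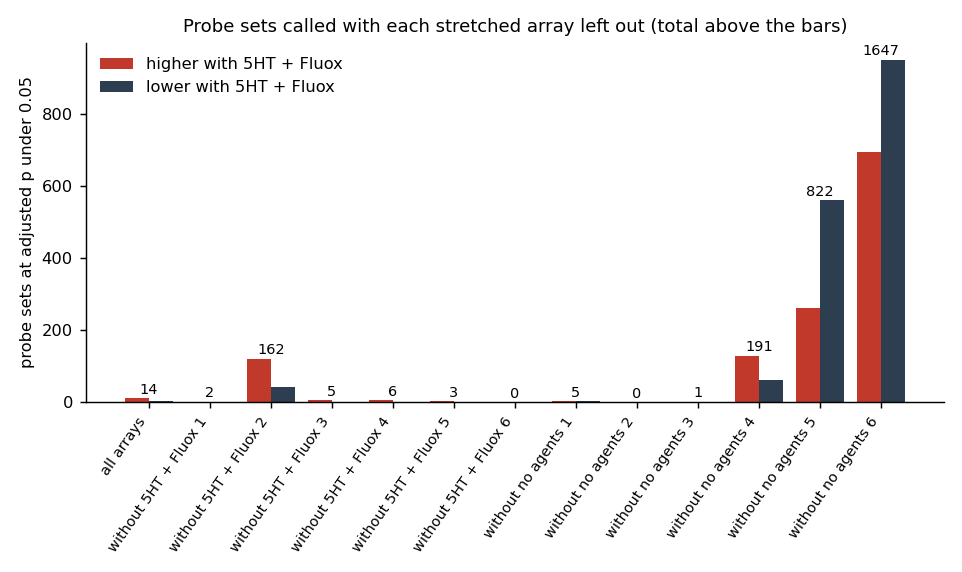
Number of probe sets called at an adjusted p under 0.05 with all arrays and with each of the 12 stretched arrays left out in turn, split into those higher and those lower with agents (total above each bar). The count is 14 with all arrays, and it stands out at 1647, 822 and 191 without arrays 6, 5 and 4 of the no-agents group and at 162 without array 2 of the agents group.

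Most ribosome biogenesis factors had a lower mean in stretched leaflets with agents. Of 110 factors listed, 80 were measured, and 77 had a lower mean with agents than with no agents, against 47.2% of all probe sets. Their median difference was -0.88 (1.84-fold lower), beside a median of 0.01 over all probe sets. At an adjusted p under 0.05, 2 of the 80 fell (0.0125% of all probe sets were lower by this rule), and at an unadjusted p under 0.05, 51 of the 80 were lower (6.99% of all probe sets). Most members were bright: for 70 of 80 the brighter group averaged 5 or more. Of the 5610 bright probe sets with 1 symbol, 54.2% had a lower and 45.8% a higher mean, 1 (0.0178%) was called, and 13.2% were lower and 11.8% higher at an unadjusted p under 0.05. The list was chosen with these results known, so the counts describe it and do not test it. The 3 factors without a lower mean were MYC, a transcription factor that drives ribosome production, with a difference of 0.17, the small-subunit factor UTP15 with 0.03 and the nuclear export receptor XPO1 with 0.04.

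DCAF13, a small-subunit processome protein, had the smallest p of all named factors. Its level was 6.46, 7.06 and 7.28 (lowest, median and highest of 6 arrays) in stretched leaflets with agents, against 7.87, 8.22 and 9.29 in those with no agents. The 2 groups did not overlap, as was the case for 25 probe sets lower with agents (0.104% of all). DCAF13 fell by 1.45 on the log2 scale (SE 0.21), which is 2.74-fold lower, with an adjusted p of 0.0198 in limma. With the 2 stretched groups alone the SE was 0.25, and DCAF13 did not pass the test (limma adjusted p = 0.572). The adjusted p was 0.0517 without array 6 of the agents group, 0.0808 without array 2 and 0.0566 without array 3 of the no-agents group, and under the threshold without any of the other 9. In static leaflets its means were 7.80 with agents and 7.86 with no agents.

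NIP7, which takes part in pre-rRNA processing, fell by less. Its called probe set read 4.35, 4.44 and 4.62 with agents, against 4.65, 4.93 and 5.23 with no agents, again without overlap. NIP7 fell by 0.46 (SE 0.08, limma adjusted p = 0.0439). The pooled SE draws on static leaflets, where the SD was 0.02 with agents and 0.12 with no agents, against 0.09 and 0.23 in stretched ones. With the 2 stretched groups alone the SE was 0.11, and NIP7 did not pass the test (limma adjusted p = 0.572). A further probe set for NIP7 averaged 3.52 with agents and 5.69 with no agents, a difference of -2.17 that did not pass the test (adjusted p = 0.106). The NIP7 call was kept in 5 of the 12 fits that left out 1 array. It was lost without array 1 (0.0869), 3 (0.0757), 4 (0.0598), 5 (0.0655) or 6 (0.0836) of the agents group and without array 2 (0.138) or 3 (0.121) of the no-agents group.

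The other 78 factors did not pass the test with all arrays, and their values are given as such. NOC3L, a nucleolar factor of large-subunit assembly, read 5.46, 6.11 and 6.87 with agents against 6.59, 7.28 and 8.34 with no agents (difference -1.30, SE 0.27, adjusted p = 0.0742). One no-agents array lay inside the agents' range. POLR1B, a core subunit of RNA polymerase I, read 5.54, 6.04 and 6.28 with agents, against 6.18, 7.14 and 7.93 with no agents (difference -1.12, SE 0.25, adjusted p = 0.0848). NOB1, the nuclease that makes the last cut in the small-subunit RNA, read 4.64, 6.05 and 6.90 with agents, against 6.56, 7.15 and 8.16 with no agents (difference -1.28, SE 0.29, adjusted p = 0.0861). For both genes at least 1 array of the no-agents group fell inside the agents' range, 2 for POLR1B and 1 for NOB1.

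Small-subunit factors further included WDR3 (difference -1.36, adjusted p = 0.0867), LTV1 (-1.48, 0.0867) and BYSL (-1.69, 0.125). Large-subunit factors included RRP15, at 9.11, 9.21 and 9.62 with agents against 9.17, 10.71 and 11.58 with no agents (difference -1.15, adjusted p = 0.0965). MRTO4, which prepares the stalk of the large subunit, read 5.38, 6.24 and 7.0 with agents, against 5.30, 9.06 and 10.16 with no agents (difference -2.06, SE 0.64, adjusted p = 0.142). Its lowest array was thus one with no agents, although the median of that group was the higher one. RRS1 (-1.79, adjusted p = 0.125), DDX56 (-2.25, 0.145) and GNL3 (-1.31, 0.179) showed lower means of a like size. Among the proteins that modify the precursor RNA, fibrillarin (FBL), a methyltransferase, differed by -1.28 (adjusted p = 0.293) and its partner NOP58 by -1.17 (0.141). Dyskerin (DKC1), which makes pseudouridine, differed by -1.52 (0.294), and its partners GAR1 and NHP2 by -0.84 (0.116) and -1.36 (0.163).

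**Figure D3:**
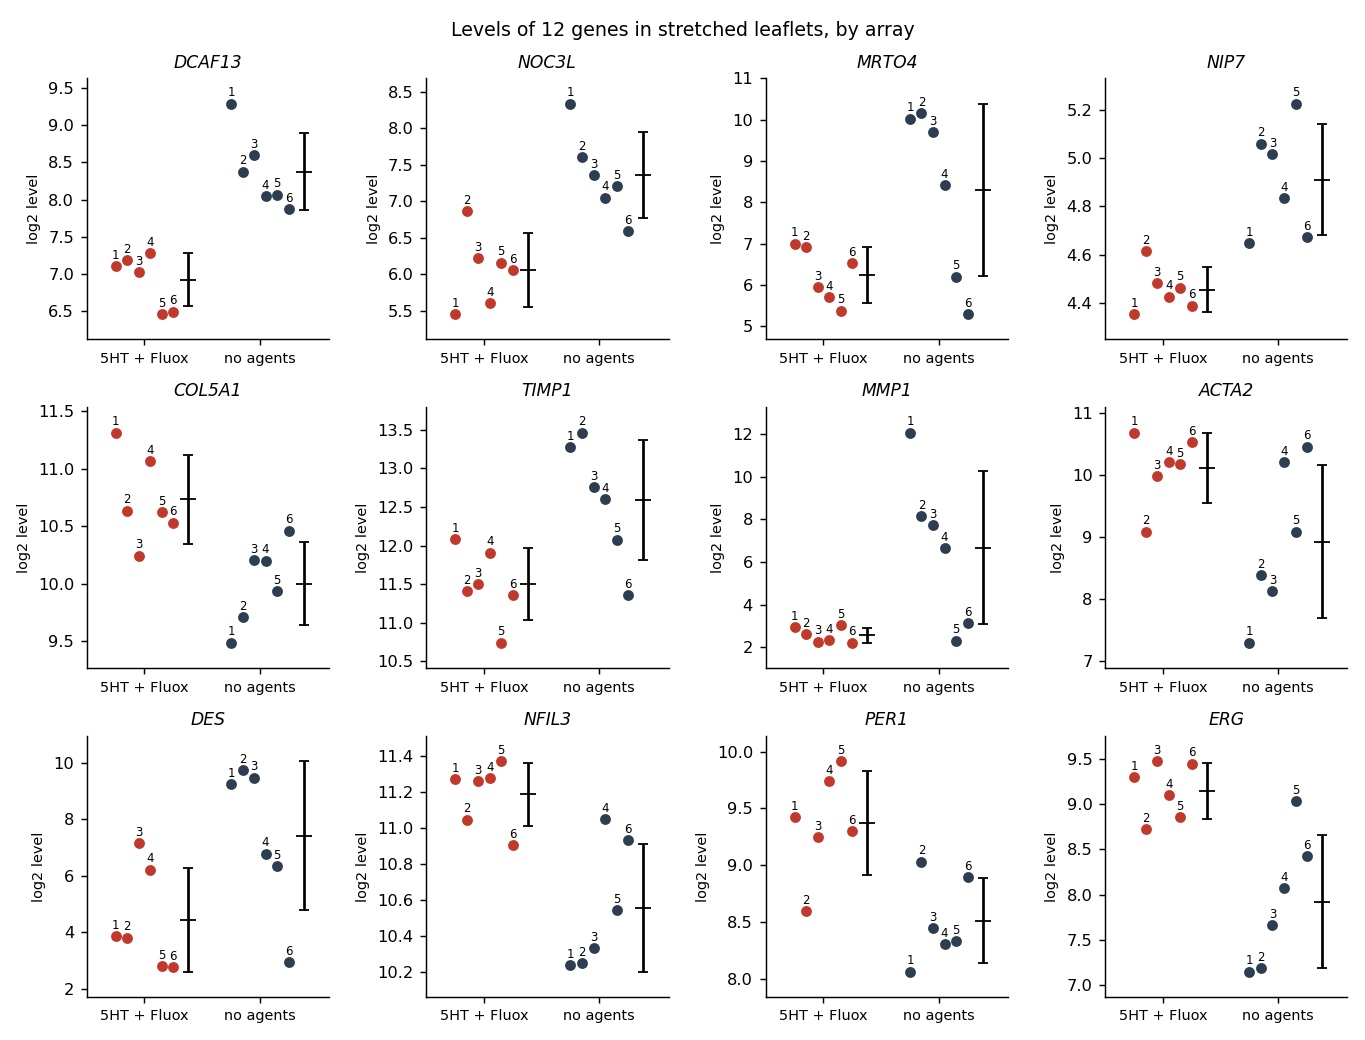
Log2 signal of 12 genes on each stretched array (points; agents left, no agents right), with the mean ± SD of 6 arrays. DCAF13 and NIP7 are without overlap between the groups, while the no-agents points of MRTO4, MMP1 and DES run from the agents' level to far above it.

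The spread lay mainly in the no-agents group. Averaged over the 80 factors as deviation from each factor's mean over the 12 stretched arrays, the arrays with agents stood at -0.22, -0.32, -0.44, -0.36, -0.82 and -0.53 (arrays 1 to 6). The arrays with no agents stood at 1.55, 1.17, 0.92, 0.44, -0.54 and -0.86. Arrays 1 to 4 with no agents were thus above all arrays with agents, while array 5 lay inside and array 6 just below the agents' range. Taken factor by factor, array 5 was inside the agents' range for 54 of the 80, array 6 for 45 and array 1 for 4. Over all probe sets the shares inside that range were 63.5% for array 5, 68.9% for array 6 and 30.6% for array 1. The count for array 5 is thus near the share of all probe sets.

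The number of factors called lower followed these arrays. It was 45 of 80 without array 6 of the no-agents group (3.97% of all probe sets were then called lower), 29 without array 5 (2.34%) and 6 without array 4 (0.258%). It was 5 without array 2 of the agents group (0.175%) and between 0 and 2 without any of the other 8 (0% to 0.0125%). Of the factors named above that missed the test, MYC, UTP15 and XPO1 also missed it in each of these 12 fits. The other 16 passed without array 6, from 0.00993 for NOC3L to 0.0462 for GAR1, and all of the 16 but FBL, DKC1 and GNL3 passed without array 5. NOC3L, NOB1 and WDR3 also passed without array 4 or without array 2 of the agents group, and POLR1B passed without array 4. The count was 12 with the 3 arrays over 2.5 in 3' to 5' difference left out (0.729% of all probe sets). The median difference kept its sign in the 12 fits that left out 1 array, from -1.17 without array 6 to -0.64 without array 1 of the no-agents group. With the 3' minus 5' signal in the model it was -0.67. In that fit 36 factors were lower at an unadjusted p under 0.05 (4.95% of all probe sets) and 1 was called lower (0.00417%). In the fit of the 2 stretched groups alone, 0 were called and 30 were lower at an unadjusted p under 0.05 (3.14% of all probe sets and 5.61% of the bright ones), and 0 were higher (5.15% and 9.04%). With array weights, which give arrays near the bulk of their group more say, 60 of the 80 were called lower, where 8.83% of all probe sets were called lower and 6.72% higher. The weights come from the same values, and for the no-agents arrays 1 to 6 they were 0.26, 1.17, 3.43, 0.69, 0.14 and 0.15. Arrays 5 and 6 thus had little say in that fit. Array 6 with no agents has the highest 3' to 5' difference of its group, 3.06, and array 5 has 2.31. Array 3 has 2.42, above array 5, and arrays 1, 2 and 4 have 0.98, 2.18 and 1.63. The part of RNA quality in the result was not tested beyond these fits.

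The proteins of the ribosome itself did not share the pattern. The 59 cytosolic ribosomal proteins measured had a median difference of 0.03, with 37 higher and 22 lower means and 0 called by limma. At an unadjusted p under 0.05, 1 of the 59 was lower (6.99% of all probe sets) and 0 were higher (7.83%). In static leaflets the 80 biogenesis factors had a median difference of -0.05 between agents and no agents.

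**Figure D4:**
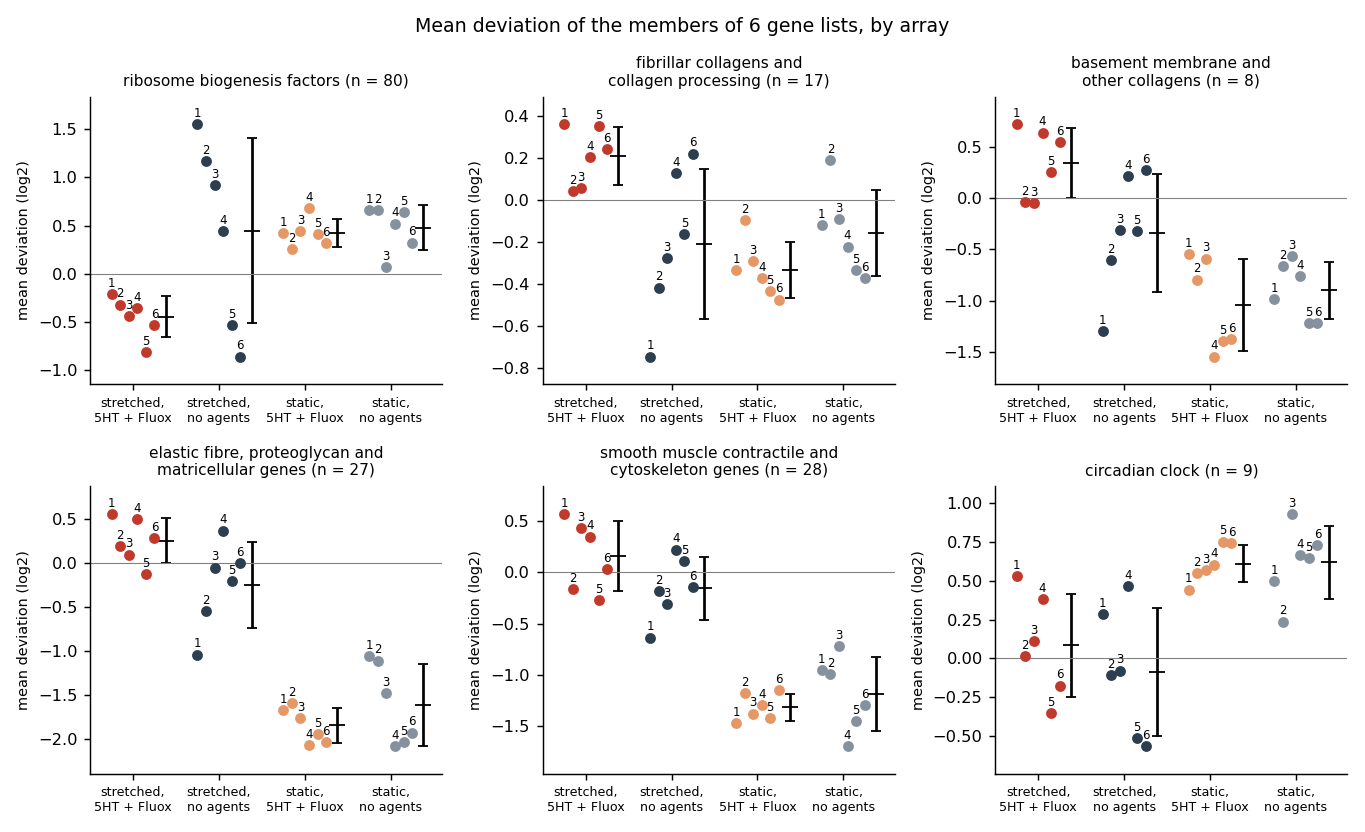
Mean deviation of 6 gene lists on each of the 24 arrays (points, numbered by replicate; each member is centred on its mean), for the 4 groups. For ribosome biogenesis, arrays 1 to 4 of the stretched no-agents group lie above all stretched arrays with agents and arrays 5 and 6 do not, at -0.54 and -0.86.

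Matrix genes had mostly higher means with agents, but 0 of them passed the test with all arrays. Of 17 fibrillar collagen and collagen processing genes, 13 had a higher mean, with a median difference of 0.47. At an unadjusted p under 0.05, 5 of the 17 were higher (7.83% of all probe sets and 11.8% of the bright ones). All 8 basement membrane and other collagens had a higher mean (median 0.69, 3 under the unadjusted threshold), against 52.8% of all probe sets. Of 27 elastic fibre, proteoglycan and matricellular genes, 23 had a higher mean (median 0.42, 7 under the unadjusted threshold). In static leaflets the medians of the 3 lists were -0.22, -0.21 and -0.16. COL1A1 is not analysed here, and among the other main fibrillar collagens COL1A2 averaged 4.59 with agents and 4.11 with no agents, and COL3A1 5.10 with agents and 5.2 with no agents.

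COL5A1, a chain of type V collagen, which sets the width of collagen fibrils, read 10.25, 10.63 and 11.31 with agents, against 9.49, 10.07 and 10.46 with no agents. The difference of 0.74 (SE 0.18) had an adjusted p of 0.0871, and 1 no-agents array lay inside the agents' range. COL5A2, the partner chain, differed by 0.83 (adjusted p = 0.285). LOXL1, an enzyme that cross-links elastin, read 8.25, 9.32 and 9.81 with agents, against 6.57, 7.54 and 9.68 with no agents (difference 1.39, SE 0.48, adjusted p = 0.175). P4HA2, which hydroxylates proline in collagen, differed by 0.73 (0.191). Without array 6 of the no-agents group COL5A1 (0.0162), LOXL1 (0.0205) and P4HA2 (0.0428) passed the test, and without array 5 COL5A1 did (0.0446). Of all probe sets, 2.9% were called higher without array 6 and 1.08% without array 5.

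In the basement membrane, the laminin chain LAMC1 read 8.70, 9.52 and 10.07 with agents, against 7.55, 8.38 and 9.49 with no agents (difference 0.95, SE 0.28, adjusted p = 0.125). COL4A2 differed by 0.95 (0.191), the type VI collagen chain COL6A3 by 0.65 (0.254) and the linker NID2 by 0.73 (0.386). Among elastic fibre and proteoglycan genes, TNXB, a tenascin that binds collagen, read 8.14, 8.65 and 9.24 with agents, against 6.36, 7.72 and 8.81 with no agents (difference 1.09, SE 0.36, adjusted p = 0.156). Fibrillin (FBN1) differed by 0.66 (0.188), biglycan (BGN) by 0.59 (0.235) and fibronectin (FN1) by 0.39 (0.215). Of these, LAMC1 passed the test without array 4 (0.0463) or 6 (0.0316) of the no-agents group and FBN1 without array 6 (0.0271). Over all probe sets, 0.538% were called higher without array 4 and 2.9% without array 6.

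The fibrillar and basement membrane medians were nearest to 0 and farthest from it without the same arrays as the ribosome biogenesis median. Without array 1 of the no-agents group they were 0.22 and 0.43, and without array 6 they were 0.58 and 0.83. The elastic fibre median ran from 0.39 without array 6 of the agents group to 0.60 without array 4 of the no-agents group. The mean deviation of the fibrillar list was 0.36, 0.04, 0.06, 0.20, 0.35 and 0.24 on the arrays with agents, against -0.74, -0.42, -0.27, 0.13, -0.16 and 0.22 on those with no agents. Array 1 with no agents, the lowest, is the array with the lowest 3' to 5' difference. With that measure in the model the medians of the fibrillar, basement membrane and elastic fibre lists were 0.27, 0.60 and 0.46. Of 16 markers of valve interstitial fibroblasts measured, 15 also had a higher mean with agents, with a median difference of 0.44 (0.26 without array 1 of the no-agents group). None of them was called (0), and 3 were higher at an unadjusted p under 0.05 (7.83% of all probe sets and 11.8% of the bright ones). Their mean deviation ran from 0.09 to 0.49 with agents and from -1.0 to 0.35 with no agents. In these bulk pieces more cells of a type and more RNA per cell cannot be told apart, and the part of cell content in the matrix values was not tested.

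Enzymes that degrade matrix and their inhibitors had no common direction, with 12 of 24 means higher and 12 lower and a median difference of 0.00. TIMP1, a secreted inhibitor of metalloproteinases, read 10.74, 11.46 and 12.09 with agents, against 11.35, 12.68 and 13.47 with no agents (difference -1.09, SE 0.26, adjusted p = 0.0867). TIMP2 had the opposite sign, with 11.98, 12.40 and 12.65 with agents, against 10.87, 11.68 and 12.21 with no agents (difference 0.72, SE 0.28, adjusted p = 0.227). The sheddase ADAM17 differed by -0.89 (0.226).

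MMP1, interstitial collagenase, had the largest difference of the list and the widest spread. It read 2.22, 2.48 and 3.05 with agents, against 2.31, 7.20 and 12.07 with no agents. The no-agents arrays ran from the agents' level, near the floor of the array, to values far above it. The difference was -4.10 (SE 1.26, adjusted p = 0.137), which did not pass the test, and its size depends on where the floor is. In static leaflets MMP1 averaged 10.34 with agents and 10.67 with no agents. Without array 5 or 6 of the no-agents group the adjusted p was 0.0293 or 0.0276 for MMP1, 0.0268 or 0.00617 for TIMP1 and 0.0379 or 0.0286 for ADAM17. In these 2 fits 2.34% and 3.97% of all probe sets were called lower.

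Contractile and cytoskeletal genes had a higher mean with agents for 26 of 28 measured, with a median difference of 0.45 and 0 called. At an unadjusted p under 0.05, 10 were higher and 1 was lower (7.83% and 6.99% of all probe sets, 11.8% and 13.2% of the bright ones). ACTA2, smooth muscle actin and the usual marker of activated interstitial cells, read 9.08, 10.18 and 10.68 with agents, against 7.30, 8.73 and 10.45 with no agents. Inside the agents' range lay 3 no-agents arrays, and the difference of 1.18 (SE 0.68) had an adjusted p of 0.454. TPM4, a tropomyosin that coats actin filaments, read 11.86, 12.34 and 12.36 with agents, against 11.35, 11.71 and 12.34 with no agents (difference 0.49, SE 0.16, adjusted p = 0.157). The actin cross-linker ACTN1 differed by 0.47 (0.197), the adhesion protein VCL by 0.28 (0.252), CALD1, which restrains actomyosin, by 0.84 (0.284), TPM1 by 0.97 (0.298), the myosin light chain MYL6 by 0.45 (0.299) and TAGLN, an actin-binding protein of smooth muscle, by 0.71 (0.328). The nonmuscle myosin MYH9 differed by 0.39 (0.313) and PDLIM3 by 0.80 (0.275). MYOCD, the coactivator of smooth muscle genes, was dim in both groups, with means of 2.98 with agents and 2.30 with no agents.

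Both exceptions in direction were muscle genes. DES, desmin, the intermediate filament of muscle, read 2.77, 3.83 and 7.17 with agents, against 2.93, 8.02 and 9.74 with no agents (difference -2.99, SE 0.90, adjusted p = 0.131). Of the no-agents arrays, 3 were inside the agents' range and 3 above it. DES averaged 2.63 with agents and 2.68 with no agents in static leaflets. SMTN, smoothelin, differed by -0.81 (adjusted p = 0.470).

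The contractile list passed the test for few members in any fit that left out 1 array. Without array 6 of the no-agents group, TPM4 (0.024) and ACTN1 (0.0471) were called higher and DES (0.00919) was called lower. In that fit 2.9% of all probe sets were called higher and 3.97% lower. Without any of the other 11 arrays 0 members were called by limma, with 2 to 12 higher and 1 or 2 lower at an unadjusted p under 0.05. In those 11 fits between 2367 and 4901 of all 23999 probe sets, both directions together, were under that threshold. The list's median ran from 0.34 without array 1 to 0.51 without array 5 of the no-agents group, and it was 0.57 without the 3 arrays over 2.5 in 3' to 5' difference. Its mean deviation was 0.57, -0.16, 0.43, 0.35, -0.27 and 0.03 on the arrays with agents, against -0.63, -0.18, -0.31, 0.22, 0.11 and -0.15 on those with no agents, so the groups overlapped widely. Static leaflets had a median difference of -0.11.

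Of 29 clock genes listed, 9 were measured, and PER1, CRY2 and RORA were among those with higher means with agents. Among the 9, 6 means were higher and 3 lower, the median difference was 0.63, and 0 were called. At an unadjusted p under 0.05, 4 were higher and 2 lower (7.83% and 6.99% of all probe sets, 11.8% and 13.2% of the bright ones). NFIL3, a repressor at the clock's D-box elements, read 10.90, 11.27 and 11.37 with agents, against 10.24, 10.44 and 11.05 with no agents (difference 0.63, SE 0.14, adjusted p = 0.0763). PER1, a repressor of the core loop that also responds to hormones and cAMP, read 8.59, 9.36 and 9.91 with agents, against 8.06, 8.39 and 9.03 with no agents (difference 0.86, SE 0.24, adjusted p = 0.121). For each of these 2 genes, 2 no-agents arrays lay inside the agents' range.

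CRY2, the partner repressor, read 8.34, 8.65 and 9.39 with agents, against 7.25, 7.79 and 8.74 with no agents (difference 0.84, SE 0.25, adjusted p = 0.124). RORA, an activator of ARNTL, differed by 0.69 (0.181), and BHLHE40, another repressor of the loop, by 1.02 (0.419). ARNTL, the core activator, had means of 4.86 with agents and 5.13 with no agents (difference -0.27, adjusted p = 0.840). DBP, an output activator, was near the floor in both groups, with means of 2.18 with agents and 2.15 with no agents. The remaining members were TIPIN, a partner of the timeless protein in DNA replication, with a difference of -0.84 (0.146), and the PER kinase CSNK1D with -1.45 (0.233).

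Clock genes were called in some of the fits that left out 1 array, and so were many other probe sets. Over all probe sets, 2.9% were called higher and 3.97% lower without array 6 of the no-agents group. The shares were 1.08% and 2.34% without array 5, 0.538% and 0.258% without array 4, and 0.5% and 0.175% without array 2 of the agents group. NFIL3 passed without array 2 of the agents group (0.0356) and without array 4 (0.0137), 5 (0.0268) or 6 (0.01) of the no-agents group. PER1 passed without array 2 of the agents group (0.0468) or array 6 of the no-agents group (0.0327), and CRY2 without array 5 (0.0268). TIPIN passed without array 5 (0.0368) or 6 (0.0182) and CSNK1D without array 5 (0.025). The list's median ran from 0.57 to 0.73 over the 12 fits, and the static leaflets had a median difference of 0.05. Its mean deviation ran from -0.35 to 0.53 on the stretched arrays with agents and from -0.56 to 0.46 on those with no agents, so the groups overlapped widely.

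Of 12 genes that handle serotonin, 6 had higher and 6 lower means with agents, with a median difference of 0.02 and 0 called by limma. At an unadjusted p under 0.05, 2 were higher (7.83% of all probe sets) and 0 lower (6.99%). Only 4 of the 12 were bright, and with dim probe sets left out, those with a mean under 4, 4 means were higher and 1 lower, with a median of 0.48. The receptor HTR2A read 6.45, 6.69 and 6.95 with agents, against 5.14, 6.08 and 6.78 with no agents (difference 0.63, SE 0.23, adjusted p = 0.197). HTR2B read 8.17, 8.61 and 9.75 with agents, against 7.79, 8.17 and 10.03 with no agents (difference 0.09, SE 0.39, adjusted p = 0.968). The ranges of both receptors overlapped between the groups. SLC6A4, the transporter that fluoxetine blocks, read 2.77, 2.84 and 3.09 with agents, against 2.76, 2.91 and 3.40 with no agents, which is near the floor of the array. MAOA and MAOB, which break serotonin down, differed by 0.48 (adjusted p = 0.475) and 1.14 (0.202). MAOB passed without array 6 of the no-agents group (0.0261), where 2.9% of all probe sets were called higher.

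Of 22 lists examined, ribosome biogenesis was the only one with a called member or with a member whose groups did not overlap. It had the most measured members, 80, and the lists were chosen with earlier results of these data known. This comparison of lists therefore describes them and does not test them. Over all probe sets 0.104% were lower and 0.0833% higher without overlap. Inflammatory genes had a lower mean with agents for 24 of 29 measured (median difference -0.51), and in static leaflets the mean was also lower with agents for 24 of 29 (median -0.33). ARG1, arginase, read 4.59, 5.28 and 6.55 with agents, against 4.69, 9.58 and 12.10 with no agents (difference -3.35, SE 0.89, adjusted p = 0.106). The acute-phase gene SAA2 differed by -1.28 (0.151) and the chemokine CCL5 by -1.88 (0.235), while NFKBIA, the inhibitor of NF-kappa B, differed by 0.61 (0.218). Without array 6 of the no-agents group ARG1 (0.0149), SAA2 (0.01) and CCL5 (0.0409) passed, and without array 5 ARG1 (0.0144) and CCL5 (0.0426) did. Of all probe sets, 3.97% were called lower without array 6 and 2.34% without array 5. The list's median was between -0.61 without array 5 of the no-agents group and -0.28 without array 5 of the agents group, and it was -0.21 with the 3' minus 5' signal in the model.

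**Figure D5:**
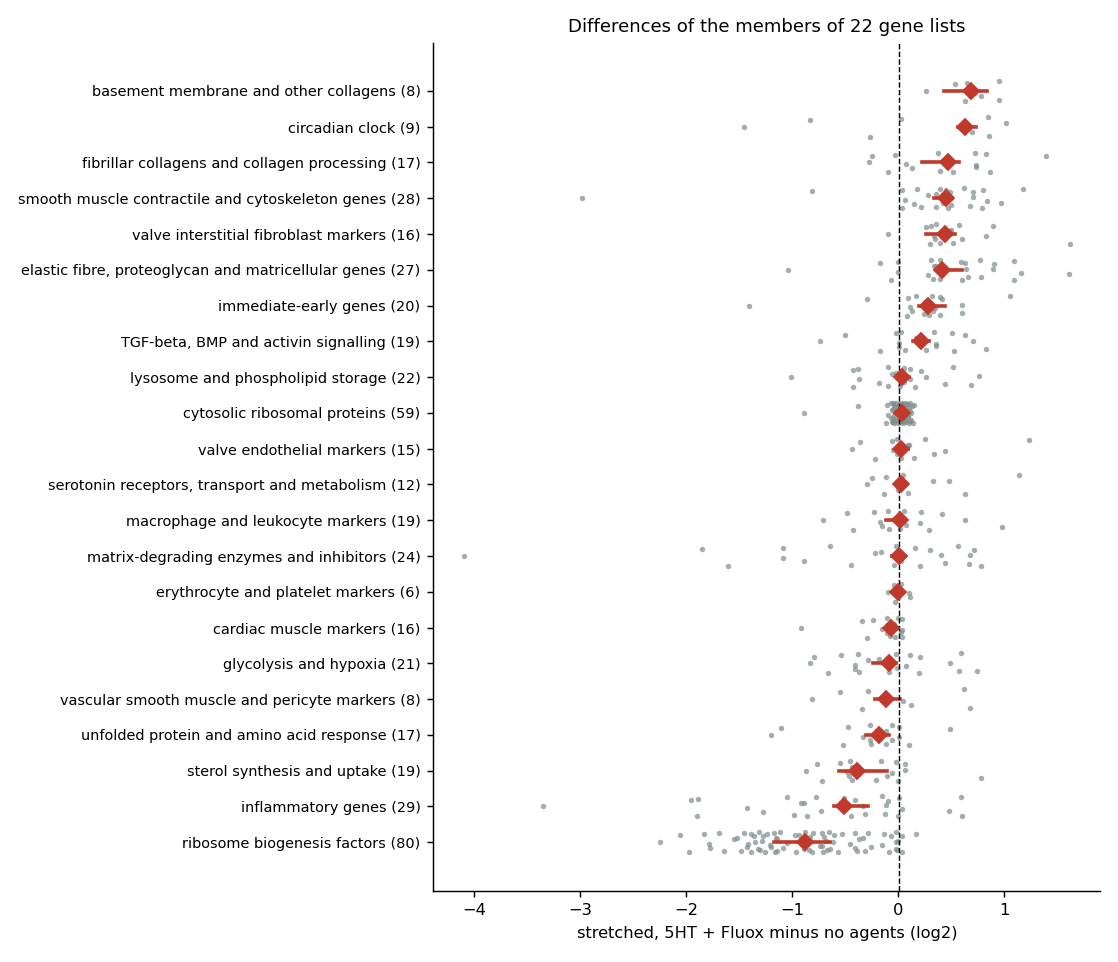
Log2 difference (agents minus no agents, stretched leaflets) of each measured member of 22 gene lists (dots), with the list's median (red diamond), the range of that median over the 12 fits that left out 1 array (red line) and the median of all probe sets, 0.01 (dashed). The ribosome biogenesis median is the lowest, at -0.88, and its range from -1.17 to -0.64 stays below 0.

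Immediate-early genes, which respond within minutes to stimuli, had a higher mean for 18 of 20 (median 0.28), with 4 higher at an unadjusted p under 0.05 (7.83% of all probe sets and 11.8% of the bright ones). The median was 0.20 without array 3 and 0.44 without array 5 of the agents group. KLF2, a flow-responsive factor, differed by 1.05 (adjusted p = 0.0909) at a low level, with means of 4.76 with agents and 3.70 with no agents, and the phosphatase DUSP1 by 0.39 (0.107). Without array 2 of the agents group these 2 genes passed the test (0.00636 and 0.0406), as they did without array 5 (0.0494 and 0.0328) or 6 (0.0167 and 0.0271) of the no-agents group. In these 3 fits 0.5%, 1.08% and 2.9% of all probe sets were called higher. Sterol synthesis genes had a lower mean for 16 of 19 (median -0.39), with a range from -0.56 without array 6 of the no-agents group to -0.10 without array 5 of the agents group and a value of -0.07 with the 3' minus 5' signal in the model. Genes of the unfolded protein and amino acid response had a lower mean for 13 of 17 (median -0.18). Their median was -0.09 without array 5 of the agents group, -0.31 without array 5 of the no-agents group and -0.06 with the 3' minus 5' signal in the model. TGF-beta, BMP and activin signalling genes had a higher mean for 15 of 19 (median 0.21, and 0.14 without array 3 of the agents group). Glycolysis genes had a median of -0.09, which ran from -0.23 without array 5 to -0.02 without array 4 of the no-agents group and was 0.04 with the 3' minus 5' signal in the model. Lysosome genes had a median of 0.03.

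The tissue label was checked against marker lists. Of 16 fibroblast markers measured, 15 were bright. Among them PDGFRB, a receptor of mural and fibroblast cells, read 8.12, 9.55 and 9.77 with agents, against 7.58, 8.33 and 9.02 with no agents (difference 0.90, SE 0.27, adjusted p = 0.129). ISLR, a marker of stromal fibroblasts, differed by 1.62 (0.177). Both PDGFRB and ISLR passed without array 6 of the no-agents group (0.0344 and 0.0422), where 2.9% of all probe sets were called higher. Of 15 endothelial markers, 4 were bright, and the list's median difference was 0.03, with a mean deviation from -0.09 to 0.29 with agents and from -0.26 to 0.10 with no agents. Among the bright ones, ERG averaged 9.15 with agents and 7.92 with no agents, PECAM1 6.12 with agents and 6.56 with no agents, ENG 5.97 with agents and 5.64 with no agents, and LYVE1 6.66 with agents and 6.22 with no agents. VWF, KDR and CLDN5, also on the list, were near the floor, with means of 2.93, 2.99 and 1.77 with agents and 2.68, 3.04 and 1.82 with no agents. Of 19 macrophage and leukocyte markers, 9 were bright and 10 had a higher mean with agents, with a median difference of 0.01. Their mean deviation ran from -0.30 to 0.70 with agents and from -0.25 to 0.15 with no agents. Of 8 vascular smooth muscle and pericyte markers 3 were bright, and of 6 erythrocyte and platelet markers 1 was. Cardiac muscle markers had a median of -0.07, and 2 of 16 were bright. ACTN2, which differed by -0.91 (adjusted p = 0.196), lay within this list, while the ventricular genes MYL2 and TNNT2 were near the floor in both groups.

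Among the genes with the smallest p over the whole array, ERG, an endothelial transcription factor, read 8.73, 9.20 and 9.48 with agents, against 7.14, 7.87 and 9.03 with no agents (difference 1.23, SE 0.25, adjusted p = 0.0696). PALMD, a gene linked to aortic stenosis in human studies, read 8.82, 9.48 and 10.13 with agents, against 6.75, 7.35 and 9.53 with no agents (difference 1.85, SE 0.41, adjusted p = 0.0774). ATP9A, a phospholipid flippase, had no overlap between the groups, with 6.03, 6.58 and 7.10 with agents, against 4.48, 5.24 and 5.78 with no agents (difference 1.38, SE 0.30, adjusted p = 0.0763). NUMA1, a spindle organiser, and SNRPN, a small nuclear ribonucleoprotein, were also without overlap, with differences of 1.43 (0.0764) and 0.83 (0.0864), as were 20 probe sets higher with agents in all (0.0833%). EXOC2, GOLGA2, NFIC, ORMDL3, TLK1 and LOC100511862 had differences between 0.78 and 1.49 with adjusted p-values up to 0.0867.

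On the lower side, PPAT, the first enzyme of purine synthesis, read 5.49, 6.82 and 7.05 with agents, against 7.13, 8.09 and 8.80 with no agents, without overlap (difference -1.53, SE 0.30, adjusted p = 0.0551). CCDC86, a nucleolar protein, was also without overlap, at 3.02, 3.65 and 3.95 with agents, against 3.98, 5.22 and 6.42 with no agents (difference -1.57, SE 0.32, adjusted p = 0.0696). RANGAP1, which drives nuclear transport, differed by -1.89 (0.0724), the mitochondrial ribosomal protein MRPL50 by -1.61 (0.0861) and POLR2M by -0.70 (0.0864). SERPINB2, a plasminogen activator inhibitor, read 3.52, 5.33 and 6.69 with agents, against 5.63, 9.48 and 11.63 with no agents (difference -3.67, SE 0.78, adjusted p = 0.0763). The leukocyte genes CD53 and PIK3AP1 differed by -2.19 (0.0792) and -1.32 (0.0864). Each gene named in this paragraph and the last passed the test without array 5 of the no-agents group, with adjusted p-values from 0.00536 for ERG to 0.0437 for GOLGA2, and without array 6, from 0.00539 for PALMD to 0.026 for ORMDL3. All but NFIC, CD53 and PIK3AP1 passed without array 4 of that group, and all but SNRPN, ORMDL3, TLK1, MRPL50 and POLR2M passed without array 2 of the agents group. These genes were picked for their small p on the same arrays, so their passes describe them and are not a separate test. Of all probe sets, 3.43% were called without array 5, 6.86% without array 6 and 0.796% without array 4 of the no-agents group. The share was 0.675% without array 2 of the agents group.

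CA11 was the only named gene called higher. It read 2.28, 3.81 and 4.08 with agents, against 2.09, 2.22 and 2.49 with no agents, so that 2 no-agents arrays lay inside the agents' range. CA11 rose by 1.28 (SE 0.20, limma adjusted p = 0.0198). That SE pools all 4 groups, and the SD of CA11 was 0.03 with agents and 0.01 with no agents in static leaflets. In stretched leaflets it was 0.70 with agents and 0.15 with no agents. With the 2 stretched groups alone the SE was 0.28, and CA11 did not pass the test (limma adjusted p = 0.572). The no-agents values lie near the floor of the array, so the size of this difference depends on where the floor is. The call was lost without array 1 (0.0502) or 6 (0.0517) of the agents group and without array 2 (0.0808) or 3 (0.0695) of the no-agents group. The other 11 called probe sets, 10 higher and 1 lower, are unnamed here.

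Whether the response differed between stretched and static tissue was tested as the interaction of agents and stretch. No probe set was called by limma (0 of 23999), with 1791 (7.46%) at an unadjusted p under 0.05. In static leaflets 1 probe set (0.00417%) was called between agents and no agents, with 422 (1.76%) under the unadjusted threshold. For DCAF13 the interaction was -1.39 (adjusted p = 0.540) and for NIP7 -0.49 (0.540). Of the 80 ribosome biogenesis factors, 20 had an interaction below 0 at an unadjusted p under 0.05 (2.65% of all probe sets) and 0 above 0 (4.81%), and 0 were called. With array weights, 2174 probe sets were called for the interaction, and with the 3 arrays over 2.5 left out 2 were, so the 0 calls hold for the unweighted fit of all arrays.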

How the data were processed

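The 24 arrays were used as log2 values of the deposited series matrix, which the authors made with GCRMA in Partek, per the submitters' processing notes, which give no versions. GCRMA corrects background and puts arrays on one scale, so values near 2 are a floor: 30.2% of probe sets averaged under 3. Array medians lay between 4.71 and 4.83. The fold changes and p-values of the authors' deposited table were copied, not recomputed, and depth has no meaning for arrays. The number of arrays limits the precision.

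After 124 control probe sets were dropped from the 24123 deposited, 23999 entered limma 3.58.1 (R 4.3.3) with 4 group means, moderated two-sided tests and Benjamini-Hochberg adjustment over all of them. An adjusted p under 0.05 made a call. Tables and figures were made in Python 3.11.15. The code was tested on simulated data.

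Symbols came from GEO's platform annotation: 10069 probe sets have 1 symbol, 198 several and 13732 none. A list member is the symbol's probe set of highest mean over the stretched arrays, and bright means that its brighter stretched group averaged 5 or more. The members and lists were chosen with earlier results of these data known. Named genes are the 12 of smallest p in each direction whose brighter group averaged 5 or more (called ones first), up to 4 of smallest p per list, any clock, contractile or ribosome biogenesis gene, and a few more (HTR2A, HTR2B, SLC6A4, ACTA2, COL1A1, DCAF13, NIP7). VWF, KDR, CLDN5, MYL2, TNNT2, COL1A2 and COL3A1 were chosen after their values were seen, as was CA11, the remaining called probe set with a symbol. Alternatives are in the closing section.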

Additional observations from a re-analysis of the deposited data

Results flagged for a closer look

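Among the 99 genes named and the other values examined, 244 groups of 6 arrays were looked through for an array far from the other 5, and 7 such values were found, where chance gives about 1 in 20 groups (12.2 of 244). Of the 7, 4 belong to array 2 of the stretched leaflets with agents. That array stood at 11.86 for TPM4 (the other 5 between 12.22 and 12.36), at 7.41 for TIPIN (6.42 to 6.71), at 10.21 for MAOA (10.78 to 10.98) and at 5.62 for PIK3AP1 (3.88 to 4.46). Array 5 with agents stood at 3.09 for SLC6A4 (2.77 to 2.89). In the stretched leaflets with no agents, array 5 stood at 3.43 for MYOCD (1.97 to 2.28) and array 6 at 2.64 for DBP (1.92 to 2.19). MYOCD, DBP and SLC6A4 lie near the floor of the array on the other arrays.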

How the results depend on the processing

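With agents against no agents in stretched tissue, the count of 14 calls became 3733 with array weights, 0 with one weight for stretched and one for static arrays, 321 with the arrays over 2.5 in 3' to 5' difference left out, 5 with that difference as a covariate, 31 after quantile normalization, 27 after centring on bright probe sets, 9 with trend and robust, 3 without dim probe sets, 2 with probe sets averaged per symbol, and 0 to 1647 with 1 array left out. In the 2 stretched groups alone it was 0, with array weights 3658 and with the covariate 0. The replicate numbers were not taken as pairs: the labels give no shared valve or day. Although 4 of 6 same-numbered stretched pairs correlated over 0.1, the range was -0.05 to 0.42, and 3 of 12 arrays correlated best with their own number. Same-numbered static arrays with and without agents correlated at 0.43, 0.59, 0.33, -0.11, 0.58 and 0.48 (numbers 1 to 6). Unlike static numbers also correlated, such as 6 with agents and 5 with no agents at 0.66. What the replicate number marks was not tested. With the replicate block there was 1 call over 4 groups, DCAF13 (adjusted p = 0.049), against 0.0539 for NIP7 and 0.052 for CA11, and 0 calls over the 2 stretched groups. The fits by condition, and the covariate and block in the 2 groups alone, were chosen after seeing the data. The interaction, 0 calls, had 2174 with array weights, 2 without the arrays over 2.5, and 0 to 2 with 1 array left out. The cause of these moves was not tested.

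Of 2569 alternative values for 99 named genes, 2168 kept direction and side of the threshold, 331 newly passed it, 33 no longer did and 37 changed sign. The sign changes were in values near 0. MYC ran from -0.12 to 0.47 with 1 array left out. UTP15 was -0.33 with the covariate in both designs and -0.056 without the arrays over 2.5, and ran from -0.19 to 0.28. XPO1 was -0.33 with the covariate (-0.35 in 2 groups), -0.14 with array weights in both designs, -0.0094 without the arrays over 2.5 and -0.038 averaged per symbol, and ran from -0.24 to 0.28. ARNTL was 0.24 with the covariate (0.25 in 2 groups) and 0.14 without the arrays over 2.5, and ran from -0.51 to 0.094. DBP was -0.051 with the covariate (-0.050 in 2 groups) and ran from -0.034 to 0.12. HTR2B was -0.23 with the covariate (-0.24 in 2 groups) and ran from -0.11 to 0.37. SLC6A4 was 0.011 with array weights in both designs. Of 572 list medians, 570 moved by less than the spread between arrays, and without dim probe sets the cardiac muscle median was -0.24 and the serotonin gene median 0.48. That spread is wide and changes of sign were not counted, so the 570 do not show that the medians are stable. With the covariate the glycolysis median went from -0.09 to 0.04 and the sterol synthesis median from -0.39 to -0.07. A low signal over background limits what can be said of the probe sets near the floor.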

Other observations

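Genes of energy use, protein folding and amino acid supply belong to lists whose members were not named above. ENO2, the neuron-type enolase, read 7.57, 8.79 and 9.12 (lowest, median and highest of 6 arrays) in stretched leaflets with agents, against 7.33, 7.83 and 8.55 in those with no agents (difference 0.75, limma adjusted p = 0.156). ENO1, the common enolase, had the opposite sign, with a difference of -0.66 (0.227), as did LDHA, lactate dehydrogenase, with -0.54 (0.335). ASNS, which makes asparagine, differed by -1.10 (0.333) and DNAJC3, a chaperone of the endoplasmic reticulum, by -1.20 (0.213). FDFT1, squalene synthase, read 7.74, 8.35 and 8.99 with agents, against 7.09, 7.49 and 8.23 with no agents (difference 0.78, adjusted p = 0.181), while 16 of the 19 sterol synthesis genes had a lower mean with agents. RPS15A, whose probe set is dim, differed by -0.88 (0.112), beside a median of 0.03 for the ribosomal proteins. None of these 7 genes passed the test with all arrays.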
